A study of Mus musculus with 6 samples.

Results

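The vasoactive peptide and nitric oxide genes described here are 10 of the 31017 gene symbols measured in single cells of mouse dermal collecting lymphatic vessels. They were taken by symbol and cover endothelin-1 (Edn1) and its receptors (Ednra, Ednrb), angiotensinogen (Agt), the angiotensin-converting enzyme (Ace) and the angiotensin II type 1a receptor (Agtr1a), the endothelial and inducible nitric oxide synthases (Nos3, Nos2), cGMP-dependent protein kinase 1 (Prkg1) and the cGMP phosphodiesterase Pde5a. The values compare where the signals are made with where their receptors and effectors are carried, by cell type and by age.

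The 6 libraries came from C57BL/6 mice of 6 weeks (young), 12 months (middle-aged) and 18 months (aged), with 1 library labelled male and 1 labelled female at each age. The collecting vessels between the inguinal and axillary nodes were made visible with Evans Blue, dissected, and digested with collagenase, elastase and dispase, and red cells were lysed. The 18-month mice came from the National Institute on Aging, which the labels do not say of the other ages, so age and supplier may not be told apart. The number of mice per library is not given in the labels, so the p-values below speak of the spread among these 6 libraries alone, which may be technical.

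Endothelin-1 is a peptide that constricts vessels through the Ednra receptor on muscle, while Ednrb on endothelium drives nitric oxide release and clears the peptide. Angiotensinogen is cut by renin and then by Ace to angiotensin II, which acts on Agtr1a. Nitric oxide raises cGMP in muscle, where Prkg1 carries the relaxing signal and Pde5a breaks the cGMP down, and in lymphatic vessels nitric oxide is known to set the rhythm and strength of contraction.

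Barcodes with at least 500 genes and at most 10% mitochondrial UMIs (unique molecular identifiers, 1 per captured transcript) gave 24488 cells, with 999 to 8228 cells and median depths of 2536 to 7508 UMIs per library, of 9616652 to 28921825 UMIs in all. Between 0 and 12 cell barcodes were shared by a pair of libraries. A gate on marker genes named 21211 cells (86.6%). All 6 lymphatic, 8 blood endothelial, 8 smooth muscle, 8 fibroblast and 8 macrophage markers had UMIs in their own type. The gate selects cells by these same markers, so this was largely fixed in advance and is no support of the gates. None of the 5 basal epithelial markers had a UMI in lymphatic endothelium. The gates gave 148 smooth muscle cells, 218 lymphatic and 931 blood endothelial cells, 12102 fibroblasts and 4997 macrophages. Vessel muscle of lymphatic and blood vessels was not separated. For the middle-aged libraries the labelled sex went against the RNA: the library labelled middle-aged male held Xist at 1402 CPM and Y-linked RNA at 0.106 CPM, while the one labelled middle-aged female held 0.255 and 265 CPM of them. CPM here is the UMIs of a gene per 1000000 UMIs of all genes in the cells of 1 type and library, and means and SDs are over libraries with at least 20 cells of the type.

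All 10 genes are protein coding. In the GENCODE M21 annotation of GRCm38, the mm10 build, Edn1 lies at chr13:42301476-42307990 on the plus strand, Ednra at chr8:77663031-77724464 and Ednrb at chr14:103814625-103844402, both on the minus strand. Agt lies at chr8:124556534-124569706 on the minus strand, Agtr1a at chr13:30336441-30382867, Ace at chr11:105967945-105989964, Nos3 at chr5:24364810-24384474 and Nos2 at chr11:78920787-78960254, all 4 on the plus strand. Pde5a lies at chr3:122728947-122859374 on the plus strand and Prkg1 at chr19:30564489-31765033 on the minus strand.

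The promoters of the ligand, its receptor pair and angiotensinogen are shown because their levels are set against each other by cell type below. They run from 250 bases before to 50 bases after the start site (RefSeq, GRCm38.p6, 5′ to 3′ on the gene's strand), at chr13:42301226-42301525 for Edn1, chr8:77724403-77724702 for Ednra, chr14:103843652-103843951 for Ednrb and chr8:124569657-124569956 for Agt. Capitals mark matches, searched on both strands, to any of 5 motifs. These were the ETS motif with the letters AGGAAG, which 35.4% of the 32851 promoters in the table hold, and the GATA motif with the letters AGATAA, which 11.2% hold. The TATA box was searched as TATAAA, held by 13.6% of promoters, the GC box as GGGCGG, held by 35.7%, and the AP-1 motif as TGANTCA, held by 7.81%.
Edn1: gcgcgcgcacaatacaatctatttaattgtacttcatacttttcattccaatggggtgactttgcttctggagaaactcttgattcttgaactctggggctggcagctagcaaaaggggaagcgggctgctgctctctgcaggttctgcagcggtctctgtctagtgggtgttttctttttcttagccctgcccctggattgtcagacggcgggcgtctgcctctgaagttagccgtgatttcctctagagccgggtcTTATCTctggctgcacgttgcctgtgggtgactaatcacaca
Ednra: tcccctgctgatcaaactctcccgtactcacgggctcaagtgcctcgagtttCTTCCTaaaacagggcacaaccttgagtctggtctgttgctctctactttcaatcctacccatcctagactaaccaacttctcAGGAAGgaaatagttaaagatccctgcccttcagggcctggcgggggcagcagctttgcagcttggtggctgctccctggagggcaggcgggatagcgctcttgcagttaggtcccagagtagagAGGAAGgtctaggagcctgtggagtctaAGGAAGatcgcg
Ednrb: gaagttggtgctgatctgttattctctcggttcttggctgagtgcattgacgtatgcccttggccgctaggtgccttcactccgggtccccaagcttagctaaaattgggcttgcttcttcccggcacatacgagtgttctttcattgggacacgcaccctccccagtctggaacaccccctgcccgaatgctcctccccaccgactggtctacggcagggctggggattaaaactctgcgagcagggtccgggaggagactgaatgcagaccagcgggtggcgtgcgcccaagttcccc
Agt: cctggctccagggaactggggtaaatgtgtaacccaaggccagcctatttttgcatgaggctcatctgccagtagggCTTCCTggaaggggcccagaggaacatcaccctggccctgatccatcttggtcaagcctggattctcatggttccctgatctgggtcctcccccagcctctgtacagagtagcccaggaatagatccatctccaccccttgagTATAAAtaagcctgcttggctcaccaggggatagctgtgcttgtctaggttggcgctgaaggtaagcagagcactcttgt
The Edn1 window held 1 GATA match, the Ednra window 4 ETS matches, the Agt window 1 TATA box match and 1 ETS match, and the Ednrb window none of the 5. The TATA match of Agt begins 30 bases before the start site. These are letter matches only.

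Across 10 cell types with enough cells in at least 3 libraries, 8 of the 10 members passed the filter on low counts (Agt and Nos2 did not). Each of the 8 was called in at least 1 type. The filter can pass a gene through the few types where it is high, so this was partly fixed in advance and is no support. Of the 80 comparisons of a member in a type with the mean of the other types, 27 were higher and 5 lower (edgeR, adjusted p under 0.05, library as a block). In blood endothelium 8 of 8 were higher, against 27.9% of the 8026 genes tested. In lymphatic endothelium 5 were higher (23.3% of all genes), in smooth muscle 4 (18.4%), in fibroblasts 4 (37.6%), in luminal epithelium 4 (30.5%), in macrophages 1 (33.6%) and in T or NK lymphocytes 1 (23.0%), while monocytes, neutrophils and B lymphocytes had none by edgeR or DESeq2, with 2 members lower at an unadjusted p under 0.05 in B lymphocytes and 0 in the other two. By DESeq2 6 of the 8 were called higher in blood endothelium, without Ednra and Prkg1, which averaged 8.19 and 6.69 CPM there. The blood endothelial gate also held 205 to 825 CPM of the 8 pericyte markers summed, by library. The part of pericyte transcripts in the blood endothelial values was not tested. The lower calls were Ednrb in fibroblasts (13.3% of all genes), luminal epithelium (11.4%) and T or NK lymphocytes (14.3%), and Ace in macrophages (11.5%) and T or NK lymphocytes. Of all genes, 5.88% were lower in monocytes, 10.1% in lymphatic endothelium, 10.4% in B lymphocytes, 10.6% in blood endothelium, 12.7% in smooth muscle and 16.8% in neutrophils, where no member was, and 13.9%, 14.4% and 19.3% were higher in monocytes, B lymphocytes and neutrophils. The counts of 4 in fibroblasts, 1 in macrophages and 1 in T or NK lymphocytes are within or near what all genes give. Most members had no UMI at all in some types, so a fitted fold against the mean of the other types is no measure of size, and levels are given instead.

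**Figure D1:**
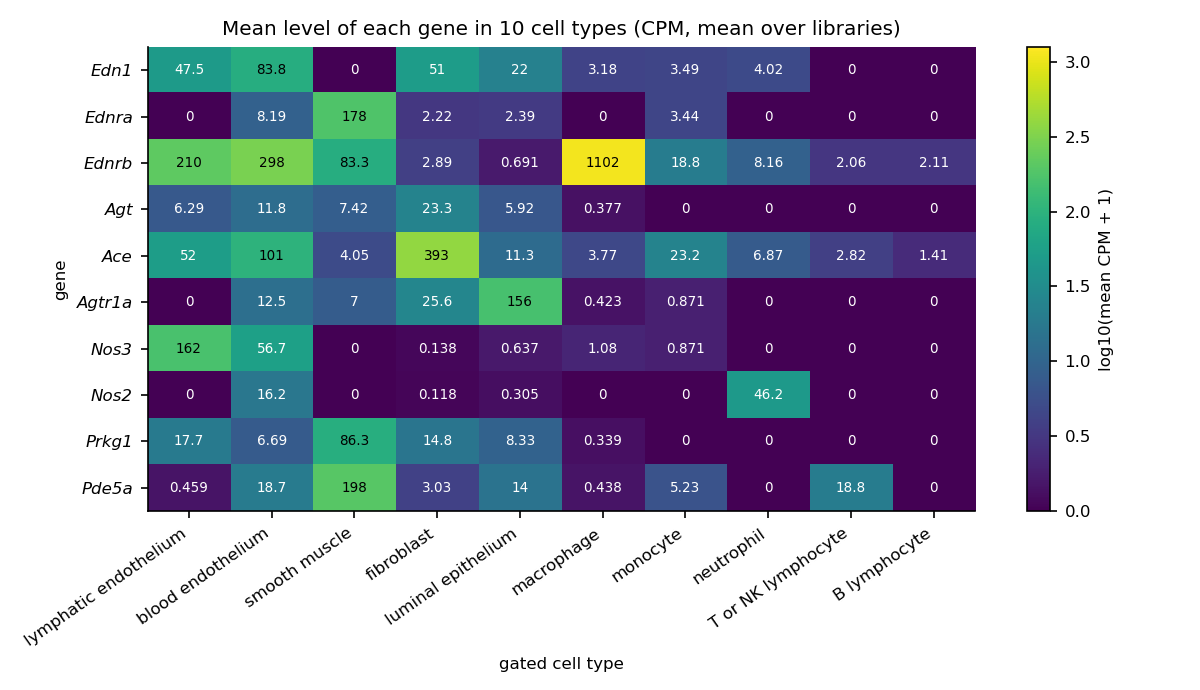
Mean CPM of the 10 genes (rows) in 10 gated cell types (columns), averaged over libraries with at least 20 cells of the type; the colour is log10(mean CPM + 1). Read along a row: Ednrb peaks in macrophages at 1102 CPM, Ednra and Pde5a in smooth muscle at 178 and 198 CPM, and Nos3 in lymphatic endothelium at 162 CPM.

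Endothelin-1 RNA was found in endothelium and fibroblasts and was not detected in muscle, and in luminal epithelium it lay near its level in empty droplets. Edn1 averaged 83.8 ± 51.4 CPM in blood endothelium (SD, n = 6), 51 ± 31.7 in fibroblasts (n = 6), 47.5 ± 15 in lymphatic endothelium (n = 3) and 22.0 ± 13.0 in luminal epithelium (n = 3). The ranges of neighbours in this order overlap, so the order of the 4 is not firm. The lowest luminal library, at 12.4 CPM, also lay under the highest monocyte one, at 13.9 CPM, which was 4 UMIs in 1 cell. Luminal Edn1 was 12.4, 36.8 and 16.7 CPM in the libraries labelled young female, middle-aged male and aged female. Empty droplets of the same libraries held 25.0, 24.5 and 12.8 CPM. Fibroblasts of the library labelled middle-aged female, at 13.3 CPM, also lay under its empty droplets, at 16.6 CPM. The part of free RNA in these values was not tested. All 4 types were past the threshold (adjusted p = 4.9e-08 for blood endothelium, 4.4e-08 for fibroblasts, 9.4e-05 for lymphatic endothelium and 0.011 for luminal epithelium). Smooth muscle had 0 Edn1 UMIs of 499136, which allows up to 6.01 CPM. Fibroblasts, 12102 of the 21211 gated cells, held 80.7% of all Edn1 UMIs in gated cells, against 3.35% in lymphatic and 7.73% in blood endothelium.

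Blood endothelial cells were divided by von Willebrand factor (Vwf) and the capillary markers Gpihbp1 and Rgcc, and cells with both or neither were not compared. The 39 cells with a Vwf UMI and no Gpihbp1 or Rgcc UMI held 49 of the 212 Edn1 UMIs, 338 CPM (95% Poisson interval 250 to 447, counting error only). The 742 cells with a capillary marker and no Vwf UMI held 94, 41.3 CPM (33.4 to 50.6). Their level by library ran from 0 in the aged female to 180 CPM in the aged male library, and was 66.3 CPM without the young male library, which held 459 of the 742 cells. Ace was likewise 276 CPM in the Vwf cells and 72.5 CPM in the capillary-marked cells, and Ednrb ran the other way, at 6.90 CPM (1 UMI) and 346 CPM. The Vwf cells were too few for any library to reach 20, so these pooled values carry no test.

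The A receptor was highest in smooth muscle. Ednra had 113, 129, 230 and 238 CPM in smooth muscle of the libraries labelled young male, middle-aged male, middle-aged female and aged male, and 167 and 153 CPM in the 9 and 4 muscle cells of the young and aged female ones. Blood endothelium, next in order, had 5.86 to 15.3 CPM in 6 libraries, so no muscle library overlapped with it. Pooled over libraries, muscle was 24.3-fold above blood endothelium (95% counting interval 15.3 to 39.8) and 90.9-fold above fibroblasts (67.7 to 122). Lymphatic endothelium and macrophages had 0 Ednra UMIs. Pericytes, with 93 gated cells and 20 or more in 1 library only, had 136 CPM (92.1 to 195) pooled. Mast cells had 11 Ednra UMIs in 97 cells, 76.3 CPM (38.1 to 136), at 106 and 64.1 CPM in their 2 libraries of at least 20 cells, and neither of these types was tested.

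The B receptor was most abundant in macrophages. Ednrb had 877 and 832 CPM in macrophages of the young male and female libraries, 964 and 2175 in those labelled middle-aged male and female, and 1067 and 693 in the aged male and female ones. The lowest of these lay above the highest blood endothelial value, 458 CPM. The difference from the mean of the other types was 6.53 on the log2 scale (SE 0.24, adjusted p = 2.9e-26), and the pooled level was 3.35-fold that of blood endothelium (3.13 to 3.59). Of macrophages thinned to 1000 UMIs each (4702 of 4997 deep enough), 52.7% had an Ednrb UMI, against 0.405% of T or NK lymphocytes (741 of 783), and 71.2% and 0.383% unthinned at median depths of 2255 and 1624 UMIs. Empty droplets held 42.3 to 266 CPM of Ednrb. Fibroblasts (3.97 CPM pooled) and lymphocytes (at most 9.33 CPM in a library of at least 20 cells) lay under this. The part of free RNA in their few UMIs was not tested. Macrophages held 88.9% of all Ednrb UMIs in gated cells.

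Within macrophages, the 3388 cells with a Lyve1 or Folr2 UMI (resident macrophage genes) and no Trem2 or Spp1 UMI had 1132 CPM of Ednrb, from 996 to 2437 over the 6 libraries. The 146 cells with Trem2 or Spp1 UMIs and no Lyve1 or Folr2 UMI had 37.8 CPM (23.1 to 58.4), with 45.9 and 4.36 CPM in their 2 libraries of at least 20 cells and 63.3 CPM pooled without the aged female one. The groups do not overlap, and no test was run on this split.

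Ednrb was also past the threshold in blood endothelium (298 ± 116 CPM, n = 6, adjusted p = 1.8e-16), lymphatic endothelium (210 ± 63.3 CPM, n = 3, adjusted p = 5.6e-10) and smooth muscle (83.3 ± 22.2 CPM, n = 4, adjusted p = 0.0048). The lowest lymphatic library, at 168 CPM, lay above the highest muscle library, at 107 CPM, while the endothelial ranges overlapped. Both endothelial ranges, 118 to 458 CPM in blood and 168 to 283 CPM in lymphatic endothelium, also overlapped with that of empty droplets. The part of free RNA in the endothelial values was not tested. UMIs of both receptors were thus counted in muscle, but its Ednrb values, 64.3 to 107 CPM, lay within the 42.3 to 266 CPM of empty droplets. The muscle gate also held 1232 to 1597 CPM of the 8 pericyte markers summed in its libraries of at least 20 cells. The part of free RNA or pericyte transcripts in the muscle values was not tested. In pericytes Ednrb was 409 CPM (329 to 503), but the pericyte gate also held 2920 CPM of the 8 blood endothelial markers summed, against 8546 CPM of the 8 pericyte markers, and the part of these endothelial transcripts in the pericyte values was not tested.

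**Figure D2:**
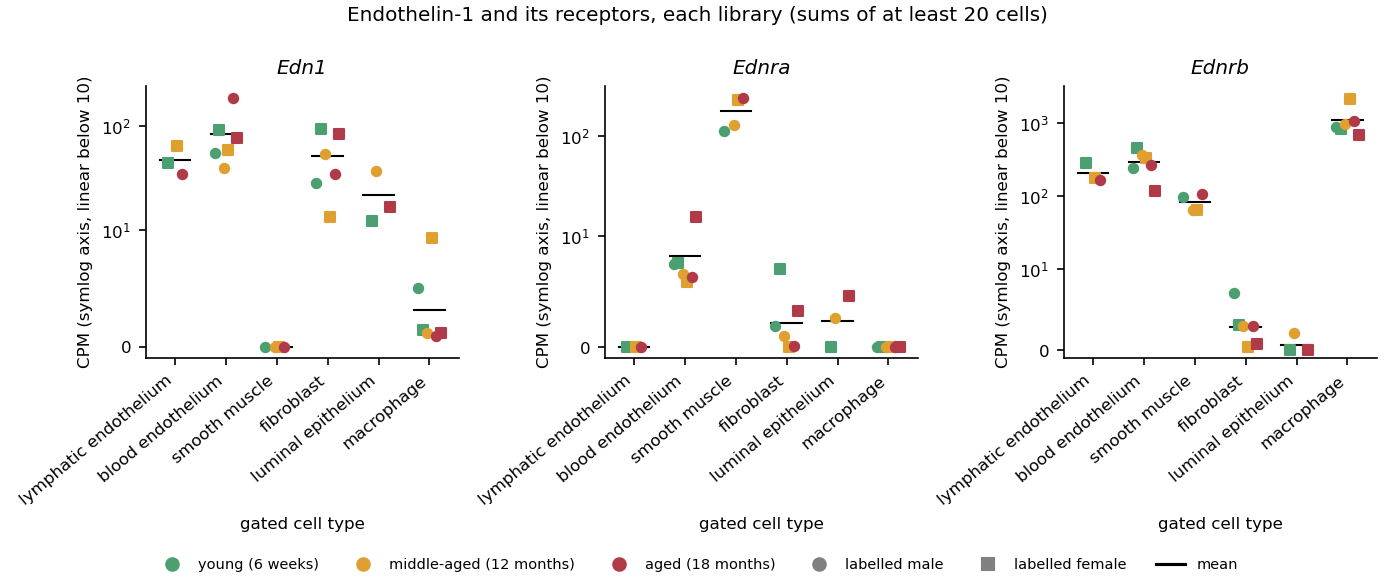
CPM of Edn1, Ednra and Ednrb (symlog axis) in 6 cell types, with 1 point per library of at least 20 cells, coloured by age and shaped by labelled sex, and a bar at the mean. Smooth muscle has no Edn1 and the highest Ednra, 113 to 238 CPM, and macrophages have the highest Ednrb, 693 to 2175 CPM.

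Other genes of the endothelin pathway were counted from a list of 9, of which 5 were tested. In fibroblasts 5 of 5 were higher (37.6% of all genes), in blood endothelium 4 (27.9%), in luminal epithelium 3 (30.5%), in lymphatic endothelium 2 (23.3%), in smooth muscle 2 (18.4%) and in macrophages 1 (33.6%). The lower calls were 2 each in macrophages (11.5% of all genes), neutrophils (16.8%) and T or NK lymphocytes (14.3%) and 3 in B lymphocytes (10.4%). The converting enzyme Ece1, which cuts the endothelin precursor, was highest in lymphatic endothelium at 630 CPM, against 371 CPM in blood endothelium, and was past the threshold in both (adjusted p = 1.4e-20 and 3.3e-21). Mme, a peptidase that degrades endothelin among other peptides, was highest in fibroblasts at 37.3 CPM. The phospholipase Plcb4, downstream of Gq-coupled receptors, averaged 274 CPM over the muscle libraries, and blood endothelium had 302 CPM.

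Angiotensin genes were split over fibroblasts and mammary epithelium. Ace had 599, 277, 239, 420, 498 and 326 CPM in fibroblasts of the libraries labelled young male, young female, middle-aged male, middle-aged female, and aged male and female. Blood endothelium, next at 101 ± 45.1 CPM (n = 6), reached at most 174 CPM, below every fibroblast library. Fibroblasts were 5.36 above the mean of the other types on the log2 scale (SE 0.23, adjusted p = 1.9e-24) and held 97.5% of Ace UMIs in gated cells. Of fibroblasts thinned to 1000 UMIs (11916 of 12102), 32.3% had an Ace UMI, against 0.405% of T or NK lymphocytes. Blood endothelium (adjusted p = 2.4e-10) and lymphatic endothelium (52.0 ± 8.75 CPM, n = 3, adjusted p = 0.0011) were also higher than the mean of the other types. The lymphatic values, 45.5 to 61.9 CPM, lay under the empty droplets of their libraries. These held 121, 76.9 and 139 CPM in those labelled young female, middle-aged female and aged male. Blood endothelial values, 44.9 to 174 CPM, lay within the 27.6 to 228 CPM of all empty droplets. The part of free RNA in the endothelial Ace values was not tested. The pooled ratio of fibroblasts to blood endothelium was 4.80 (4.27 to 5.42).

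Agtr1a, the receptor for the peptide that Ace makes, was highest in luminal epithelium, the milk-duct cells of the mammary gland, which were gated in 3 libraries. It had 171, 235 and 61.7 CPM there in the libraries labelled young female, middle-aged male and aged female, against 13.7 to 32.9 CPM in fibroblasts, so the groups do not overlap. Both were past the threshold (adjusted p = 2.1e-14 and 2.1e-10), as was blood endothelium (12.5 ± 12.4 CPM, n = 6, adjusted p = 5.0e-05), where the libraries labelled middle-aged male and aged female had 0 UMIs. Empty droplets held 19.2, 42.9 and 79.6 CPM of Agtr1a in the libraries labelled young female, middle-aged male and aged female. The aged female luminal value lay under this, as did the fibroblast values of the libraries labelled middle-aged male and aged female, at 23.4 and 32.9 CPM. Of the 337 luminal UMIs of the aged female library 49 were in 1 cell. Smooth muscle had 2 Agtr1a UMIs of 499136 and lymphatic endothelium 0 of 1843571. In pericytes 17 UMIs gave 77.3 CPM (45.0 to 124), untested.

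Agt did not pass the filter, so its type differences are given from the fit without a filter. It was higher than the mean of the other types there in fibroblasts (adjusted p = 5.1e-25), luminal epithelium (1.6e-14) and blood endothelium (0.00040). These p-values are no measure of how firm a level is. Fibroblast libraries ran from 0.822 to 75.4 CPM and overlapped with blood endothelium (0 to 26.5 CPM). The young male library held 1209 of the 1618 fibroblast UMIs. Luminal epithelium had 1.91, 4.15 and 11.7 CPM in the libraries labelled young female, middle-aged male and aged female. Their empty droplets held 3.19, 2.04 and 4.27 CPM. In blood endothelium 35 of the 46 Agt UMIs were in the young male library, in 12 of its 565 cells and 15 of them in 1 cell. The 4 adipocyte markers summed to 19.9 to 223 CPM in the blood endothelial gate, against 1.69 to 8.00 CPM in fibroblasts, and their part in these values was not tested. Fibroblasts held 89.9% of Agt UMIs in gated cells. The 19 gated adipocytes had 25 UMIs, 379 CPM (245 to 559), of which 24 were in the young male library. In fibroblasts the 1856 cells with a Col15a1 UMI and no Pi16 or Dpp4 UMI had 141 CPM of Agt (132 to 150) and 7.85 CPM of Edn1. Their Agt level ranged from 7.13 to 229 CPM over 5 libraries and was 45.2 CPM without the young male one, which held 986 of the 1856 cells. By contrast, the 7360 cells with Pi16 or Dpp4 UMIs and no Col15a1 UMI had 3.58 CPM of Agt (2.96 to 4.29) and 58.5 CPM of Edn1, or 2.12 CPM of Agt without the young male library. Ednra was 9.92 CPM in the Col15a1 cells and 0.278 CPM in the Pi16 or Dpp4 cells. No test was run on this split.

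**Figure D3:**
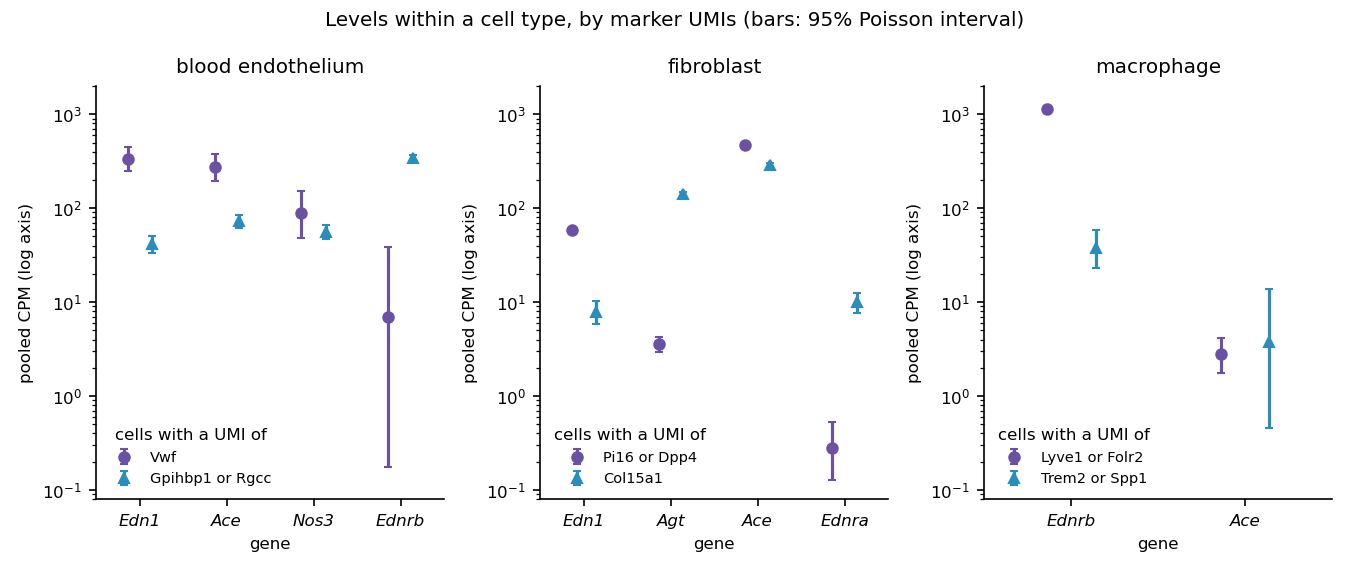
Pooled CPM (log axis) of selected genes in blood endothelium, fibroblasts and macrophages divided by marker UMIs, with 95% Poisson intervals for counting error only. Edn1 and Ednrb run in opposite directions in blood endothelium (338 and 6.90 CPM in Vwf cells, 41.3 and 346 CPM in capillary-marked cells), as Edn1 and Agt do in fibroblasts.

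Of 13 other renin-angiotensin genes 6 were tested, and 5 of them were higher in macrophages (33.6% of all genes) and 0 lower. In monocytes (13.9% of all genes) and neutrophils (19.3%) 3 were higher. In blood endothelium (27.9%), fibroblasts (37.6%) and luminal epithelium (30.5%) 2 were higher, and in smooth muscle (18.4%) and lymphatic endothelium (23.3%) 1. These counts of 2 and 1 are near what all genes give. The lower calls were 3 each in smooth muscle (12.7% of all genes) and T or NK lymphocytes (14.3%) and 2 in luminal epithelium (11.4%). Blood endothelium (10.6%), lymphatic endothelium (10.1%), fibroblasts (13.3%) and B lymphocytes (10.4%) had 1 lower each. In macrophages the median difference of the 6 genes from the mean of the other types was 2.09 on the log2 scale, against 0.15 for all genes tested. The genes higher in macrophages included the peptidases Prcp (261 CPM), which cuts angiotensin II, and Enpep (89.1 CPM), which trims it to angiotensin III. The renin receptor Atp6ap2 (302 CPM) was also among them. Both Enpep (31.1 CPM, adjusted p = 1.5e-10) and Anpep (57.3 CPM, adjusted p = 6.7e-15) were higher in fibroblasts.

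Nos3 was endothelial, and higher in lymphatic than in blood endothelium. It had 199, 177, 176, 167, 142 and 119 CPM in lymphatic endothelium of the libraries labelled young male, young female, middle-aged male, middle-aged female, and aged male and female, where 3 libraries held 15, 14 and 4 cells (young male, middle-aged male and aged female). Blood endothelium of the same libraries had 66.0, 65.4, 39.7, 41.0, 56.6 and 71.6 CPM. Lymphatic was above blood endothelium in 6 of 6 libraries and no value overlapped. The lymphatic gate also held 1359 CPM of the 8 blood endothelial markers summed, with Aplnr at 0, against 8076 CPM in the blood endothelial gate, and the part of these transcripts in the values was not tested. The difference was 1.67 on the log2 scale (SE 0.39, adjusted p = 0.0018), and the pooled ratio was 2.63 (2.18 to 3.17). Without the library labelled middle-aged female it was 1.46 and missed the threshold (adjusted p = 0.052). Thinned to 1000 UMIs, 17.1% of lymphatic (216 of 218 deep enough) and 5.94% of blood endothelial cells (876 of 931) had a Nos3 UMI, against 0.0851% of macrophages. Together these endothelia held 55.7% and 36.3% of Nos3 UMIs in gated cells, and smooth muscle had none.

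In the comparison of lymphatic with blood endothelium 1 member of 8 was higher (10.7% of all genes) and 2 were lower (12.8%). The lower ones were Agtr1a, at 0 UMIs in the lymphatic endothelium of every library (adjusted p = 0.0028), and Pde5a, at 1 UMI against 44 (pooled ratio 0.0389, 95% counting interval 0.000964 to 0.229, adjusted p = 0.00075). Of the 64 Agtr1a UMIs of blood endothelium 47 were in the young male and 11 in the young female library, at 27.0 and 27.7 CPM. The libraries labelled middle-aged female and aged male, which held 80 and 84 of the 218 lymphatic cells, had 4 and 2 blood endothelial UMIs (7.81 and 12.6 CPM), and the other two had none. Edn1 (log2 difference -0.45, SE 0.58), Ednrb (-0.59, SE 0.42) and Ace (-0.91, SE 0.44) did not pass (adjusted p = 0.64, 0.34 and 0.14).

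Nos2 RNA was scarce, with 93 UMIs in gated cells. Lymphatic endothelium had 0 of 1843571, which allows 1.63 CPM, and blood endothelium held 60, spread over all 6 libraries, at 16.2 ± 8.64 CPM (SD, n = 6). Neutrophils held 17, all in 4 cells of the aged female library (139 CPM), with 0 in the neutrophils of the other two libraries that had at least 20. In the fit without a filter blood endothelium was above the mean of the other types (adjusted p = 1.0e-18) and lymphatic endothelium below blood endothelium (adjusted p = 0.00021). The same fit called neutrophils higher (adjusted p = 4.7e-13) on those 17 UMIs in 4 cells. Its small p-values for so scarce a gene are thus no measure of how firm a level is. Macrophages, a known source of inducible synthase when activated, had 0 UMIs in 4997 cells.

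Among the 10 fitted types the effectors of nitric oxide were highest in smooth muscle. Pde5a had 146, 258, 198 and 190 CPM there in the libraries labelled young male, middle-aged male, middle-aged female and aged male, and T or NK lymphocytes, next in order, had 0 to 49.8 CPM in 6 libraries. Prkg1 had 73.0, 96.7, 80.4 and 95.1 CPM in the same muscle libraries, against 12.4 to 26.5 CPM in lymphatic endothelium, next in order. Neither gene's muscle values overlapped with the next type. Outside the fit, pericytes had 86.4 CPM of Prkg1 pooled (52.0 to 135, 19 UMIs), close to the muscle mean of 86.3 CPM, and basal epithelium 59.5 CPM (38.1 to 88.6), both untested. Pericytes had 77.3 CPM of Pde5a (45.0 to 124). Smooth muscle was past the threshold for both (adjusted p = 4.3e-14 and 2.9e-10). Pde5a was also higher in T or NK lymphocytes (adjusted p = 0.00014), luminal epithelium (0.00072) and blood endothelium (0.00044), and Prkg1 in fibroblasts (14.8 ± 3.89 CPM, n = 6, adjusted p = 8.0e-08), lymphatic endothelium (0.00024), luminal epithelium (0.0030) and blood endothelium (0.0093).

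Set against fibroblasts, the most numerous cells of the tissue, smooth muscle was higher in 4 of 8 members (11.8% of all genes) and lower in 3 (21.1%). Pooled levels in muscle were 90.9-fold higher for Ednra (adjusted p = 1.9e-08), 53.8-fold for Pde5a (41.0 to 70.2, adjusted p = 1.5e-12), 19.7-fold for Ednrb (13.6 to 27.8, adjusted p = 2.7e-08) and 6.39-fold for Prkg1 (4.56 to 8.73, adjusted p = 8.0e-05). Edn1 was at least 7.54-fold lower in muscle (0 UMIs, with a floor of 3, adjusted p = 0.0051) and the Ace ratio was 0.00935 (0.00113 to 0.0338, adjusted p = 6.0e-11). Agtr1a was lower on 2 muscle UMIs (ratio 0.155, 0.0187 to 0.561, adjusted p = 0.023). Without the young male library or the one labelled middle-aged female this call was lost (adjusted p = 0.18 and 0.10). Fibroblast markers stood at 679 CPM summed in the muscle gate, against 25155 CPM of the 8 muscle markers.

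**Figure D4:**
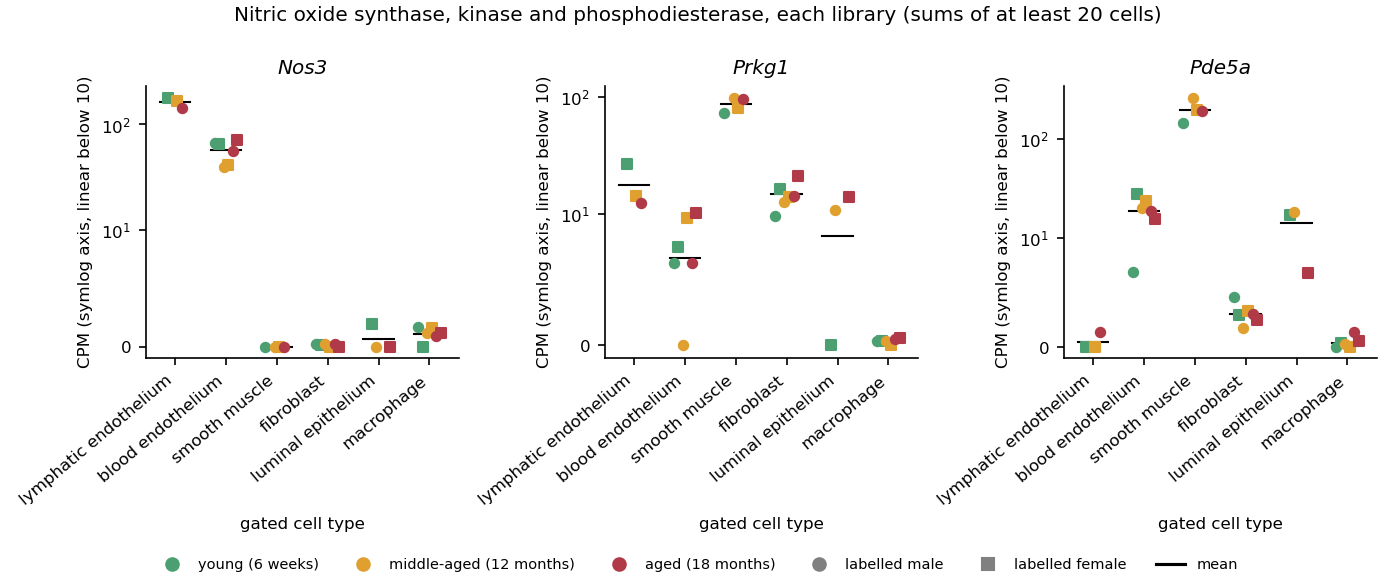
CPM of Nos3, Prkg1 and Pde5a (symlog axis) in 6 cell types, with 1 point per library of at least 20 cells and a bar at the mean. Nos3 stands at 39.7 CPM or more in every endothelial library and at 1.91 CPM or less in the other types shown, and Prkg1 and Pde5a are highest in smooth muscle, at 73.0 to 96.7 and 146 to 258 CPM.

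Of 32 other nitric oxide and cGMP genes 23 were tested. In smooth muscle 8 were higher (18.4% of all genes) and 3 lower (12.7%), with a median difference of 0.19 on the log2 scale against -0.11 for all genes. They were led by the subunits of soluble guanylate cyclase, the nitric oxide receptor, Gucy1a1 (633 CPM, adjusted p = 1.1e-19) and Gucy1b1 (261 CPM, adjusted p = 4.0e-15), with the myosin phosphatase subunit Ppp1r12a (1276 CPM) and the phosphodiesterase Pde3a (450 CPM). In lymphatic endothelium 8 were higher (23.3% of all genes) and 0 lower (median 1.92 against 0.05), among them Cav1 (689 CPM), which binds the endothelial synthase, and Ddah1 (87.1 CPM), which clears an inhibitor of it. In blood endothelium 13 were higher (27.9% of all genes) and 0 lower, with Cav1 at 1241 CPM and the natriuretic peptide receptors Npr1 (94.9 CPM) and Npr3 (66.5 CPM). In fibroblasts 10 were higher (37.6% of all genes) and 3 lower (13.3%), with the second cGMP kinase Prkg2 at 86.4 CPM.

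Other vasoactive peptide genes were counted from a list of 18, with 8 tested. In blood endothelium 7 were higher (27.9% of all genes) and 0 lower, but Ramp2 and Aplnr among these are markers of the gate and carry no evidence. Calcrl, the receptor that adrenomedullin acts on, was 151 CPM there. In lymphatic endothelium 3 were higher (23.3% of all genes), Ramp2 again among them, with Calcrl at 307 CPM, and 1 was lower (10.1%). The median of the 8 was -0.79 on the log2 scale there, against 0.05 for all genes. In smooth muscle 3 were higher (18.4% of all genes) and 0 lower, the neuropeptide Y receptor Npy1r (433 CPM, adjusted p = 1.1e-17), the vasopressin receptor Avpr1a (106 CPM, adjusted p = 3.4e-10) and Ramp1 (176 CPM). In fibroblasts 5 were higher (37.6% of all genes) and 0 lower, Ramp2, Calcrl and Npy1r among them. Adrenomedullin itself (Adm), also called higher in fibroblasts, was highest there at 161 CPM.

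The genes whose mean log2(CPM + 1) over the 10 cell types was most like a member's are given as a description, over points that share libraries and depth. For Nos3 they were Tal1, Gpr182 and Hoxd10 (Pearson r = 0.99, 0.99 and 0.98), for Ednra they included Tbx2 and Avpr1a (0.96 each), and for Ednrb Stard8, Myo7a and 1810013L24Rik (0.95, 0.95 and 0.93). For Edn1 they were Rai14, Zbed3 and Arhgef28 (0.95 each), for Prkg1 Arhgap44, Atp6v0e2 and Gm17501 (1.00, 0.98 and 0.97), and for Pde5a Rpgr, Unc45a and Ppp2r1a (0.94, 0.94 and 0.93). For Agt they were Uggt2, Vangl1 and Cachd1 (0.98, 0.97 and 0.97), for Ace Rbp4, Fbln2 and Pcdhgc3 (0.95, 0.92 and 0.91), for Agtr1a they included Ccdc68 and Ephb3 (0.97 and 0.94), and for Nos2 Ifit1bl2, Cc2d2b and Gm5483 (0.94, 0.92 and 0.91).

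No member passed the test for a change with age. With labelled sex in the model, age could be fitted in blood endothelium (4 members tested), fibroblasts (8) and macrophages (3), and 0 of the 45 comparisons passed by edgeR or by DESeq2. Some fits that left out 1 library did call members. Such a fit rests on 1 library at 1 age, so its calls are not read as age changes. In the fits of all 6 libraries, all genes gave almost no calls either. Between aged and young, 0.0206% rose and 0.0206% fell in blood endothelium, and 0.0% in fibroblasts and macrophages. There 527 and 217 genes had an unadjusted p under 0.05, and DESeq2 called 15 higher and 29 lower in fibroblasts and 1 lower in macrophages. Of the 45 member comparisons 3 had an unadjusted p under 0.05, near the number that this cut gives with no change. Ednrb in fibroblasts was 7.05 and 3.1 CPM in the young pair, 2.94 and 0.416 CPM in the middle-aged pair and 3.03 and 0.822 CPM in the aged pair. The log2 differences from the young were -1.75 for the middle-aged (SE 0.62, edgeR adjusted p = 0.73) and -1.58 for the aged (SE 0.64, adjusted p = 0.99). These levels are under those of the empty droplets. Edn1 in blood endothelium was 182 and 76.7 CPM in the aged pair and 39.7 and 58.6 CPM in the middle-aged pair (log2 difference 1.22, SE 0.51, adjusted p = 0.65). The 182 CPM of the aged male library was 29 UMIs in 5 of 61 cells, 14 of them in 1 cell, and the 58.6 CPM of the one labelled middle-aged female was 30 UMIs in 8 of 75 cells, 12 of them in 1 cell.

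Ednrb in macrophages differed from the young by 0.09 (SE 0.48) in the aged pair and by 1.12 (SE 0.50, adjusted p = 0.55) in the middle-aged pair, where the library labelled female was the high one. In blood endothelium Ednrb was 270 and 118 CPM in the aged pair and 246 and 458 CPM in the young pair (log2 difference -0.90, SE 0.43, adjusted p = 0.71), and the pairs overlap. Nos3 in blood endothelium differed by -0.10 (SE 0.41) between aged and young.

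Smooth muscle and lymphatic endothelium had too few cells in some libraries for that model. Without the sex term, Ednra in muscle was 113 CPM in the young library, 129 and 230 CPM in the middle-aged ones and 238 CPM in the aged one (aged minus young 0.91, SE 0.72, adjusted p = 0.97). Pde5a differed by 0.23 (SE 0.73) and Prkg1 by 0.23 (SE 1.00) in the same fit. Each of these ages but the middle one rests on 1 library, whose spread is taken from the others. With sums of at least 10 cells, Nos3 in lymphatic endothelium differed by -0.40 (SE 0.46, adjusted p = 0.69) between aged and young.

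Within fibroblasts the 6 libraries fell apart by a pattern other than age. Agt had 3.39, 2.75 and 0.822 CPM in the libraries labelled young female, middle-aged male and aged female, which are those with Xist RNA. It had 75.4, 34.1 and 23.1 CPM in the ones labelled young male, middle-aged female and aged male, which are those with Y-linked RNA. Edn1 ran the other way, at 93.1, 53.4 and 83.5 CPM in the libraries with Xist RNA and 28.6, 13.3 and 34.4 CPM in those with Y-linked RNA. Ace was 277, 239 and 326 CPM in the libraries with Xist RNA and 599, 420 and 498 CPM in those with Y-linked RNA. Pde5a was 2.96, 1.77 and 2.47 CPM in the libraries with Xist RNA and 4.61, 3.33 and 3.03 CPM in those with Y-linked RNA. Its empty droplets held 2.13, 4.08 and 8.54 CPM and 6.91, 7.10 and 6.67 CPM, above every fibroblast value but the young female one. For Agt, empty droplets of the libraries with Xist RNA held 3.19, 2.04 and 4.27 CPM. The part of free RNA in these values was not tested. Agt, Edn1, Ace and Pde5a, 4 of the 8 members tested, did not overlap between the sets, against 16.5% of the 12103 fibroblast genes. Edn1 was the 1 higher in the Xist set (12.5% of all genes) and 3 were lower (3.99%), and the sets were noticed after the values were seen. Ednra, Ednrb, Agtr1a and Prkg1 overlapped: Agtr1a was 32.6, 23.4 and 32.9 CPM in the libraries with Xist RNA and 28.8, 13.7 and 22.4 CPM in those with Y-linked RNA.

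As labelled, the female minus male difference in fibroblasts was -2.41 (SE 2.14, adjusted p = 1.00) for Agt and 0.37 (SE 0.68, adjusted p = 1.00) for Edn1, with 0.0% of all genes called either way by edgeR, 162 at an unadjusted p under 0.05 and 1 called by DESeq2. In a fit that swapped the labelled sex of both middle-aged libraries, added after the values were seen, the differences were -4.31 (SE 0.30, adjusted p = 0.00030) and 1.49 (SE 0.21, adjusted p = 0.010), and that fit called 157 genes higher and 124 lower of 12103. Ace was -1.01 there (SE 0.21, adjusted p = 0.051). In Col15a1-marked fibroblasts alone Agt was 7.13 and 8.75 CPM in the libraries labelled young female and middle-aged male, and 229, 203 and 93.6 CPM in those labelled young male, middle-aged female and aged male. The 4 adipocyte markers summed to 1.69, 1.77 and 2.88 CPM in fibroblasts of the libraries with Xist RNA and 4.36, 2.71 and 8.00 CPM in those with Y-linked RNA, and their part in the Agt values was not tested. Luminal epithelium was gated in the libraries with Xist RNA, at 96, 318 and 197 cells, and had 0 cells in those with Y-linked RNA. The luminal marker list summed to 27.8, 37.2 and 68.2 CPM in fibroblasts of the libraries with Xist RNA and 1.50, 1.46 and 2.54 CPM in those with Y-linked RNA, and its part in these values was not tested.

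**Figure D5:**
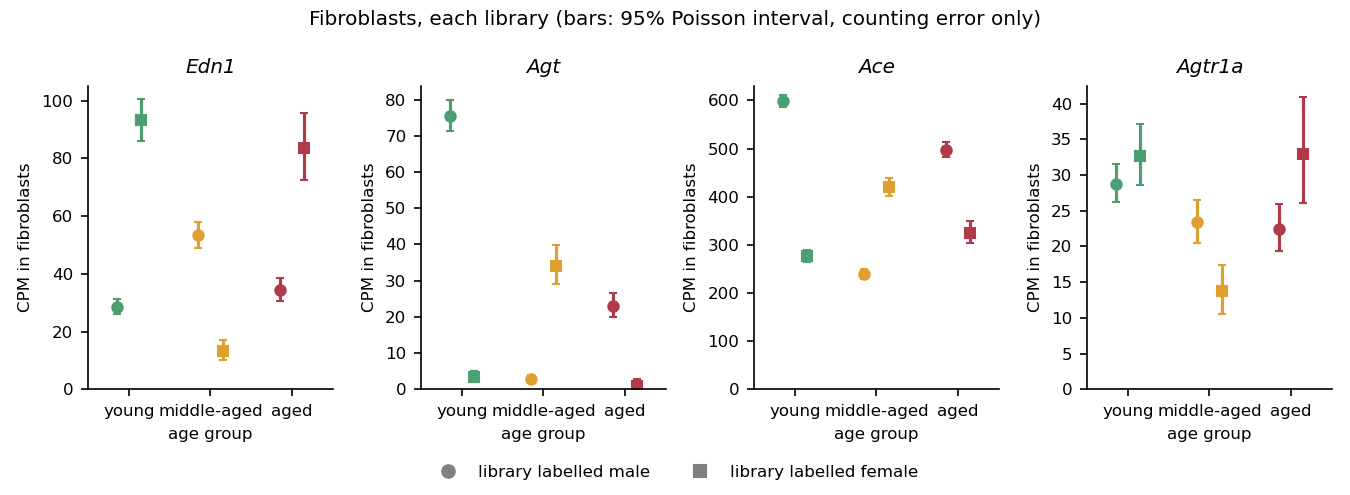
CPM of Edn1, Agt, Ace and Agtr1a in fibroblasts of each library by age group, with circles for libraries labelled male, squares for those labelled female and bars for the 95% Poisson interval (counting error only). Agt is highest at 75.4 CPM in the young male library, and the middle-aged pair is turned round against the young and aged pairs for Edn1, Agt and Ace.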

How the data were processed

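UMI counts per gene and barcode were deposited by the authors as raw matrices of 31053 gene IDs. Cell Ranger 3.0.2, Seurat and mm10 are named in the submitters' processing notes. Kept barcodes had 500 genes or more and no more than 10% of UMIs from mitochondrial genes. A cell was gated by at least 3 distinct markers of a type, a scaled score of at least 0.2 and a margin of 1.5 over the second type, cut-offs set after seeing only marker counts. Cells with markers of more than 1 type (992) were dropped as possible doublets, and Scrublet marked 577 of 24488. UMIs were summed per library and type (at least 20 cells) and tested with edgeR 4.0.16 (filterByExpr, TMM, quasi-likelihood, Benjamini-Hochberg over all genes), with library as a block for types and labelled sex as a term for age. DESeq2 1.42.0 was an alternative. R was 4.3.3, Python 3.11.15 and scanpy 1.11.5. Poisson and binomial intervals are 95% and cover counting error only, and a floor is 3 UMIs. Empty droplets are barcodes of 10 to 100 UMIs. The fits were checked on simulated counts. The named genes are all 10 members, the 3 most alike to each among 11933 genes (2 of which are not reported here), and up to 4 called genes of each of 4 pathway lists per type. The members and lists were chosen with earlier results of these data known, and the splits of a type by marker UMIs carry no test. Of the 10 members, 7 have a promoter in the RefSeq table.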

Additional observations from a re-analysis of the deposited data

How the results depend on the processing

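The 27 higher calls by cell type became 24 with DESeq2, 34 with no filter, 31 with clusters and 27 to 31 with 1 library left out. Thinning the sums to 50105 UMIs left 6, since few members then passed the filter. The 5 lower calls became 18 with DESeq2, 10 with clusters and 0 with thinned sums, and ranged from 0 to 6 with 1 library left out (0 without the young female, 3 without the one labelled middle-aged male and 3 without the aged female). Lymphatic against blood endothelium had 3 calls, and 5 with no filter, 5 with clusters, 0 with thinned sums and 2 to 4 with 1 library left out. Smooth muscle against fibroblasts had 7 calls, and 2 with thinned sums, 6 to 8 otherwise. The age count of 0 rose in some fits with 1 library left out, which leave 1 library at 1 age, and stayed 0 otherwise. Among the results recomputed, the direction reversed for Agt and Edn1 by age in fibroblasts only. Agt, aged minus young, was -1.58, from -5.36 (no aged male library) to 2.11 (no young male library) with 1 left out. Agt, middle-aged minus young, was 1.01, up to 3.67 without the library labelled middle-aged male, and -2.17 without the young female, -4.82 without the one labelled middle-aged female, -0.64 without either aged library, -0.69 with the middle-aged sex labels exchanged and -1.04 with no sex term. Edn1, aged minus young, was -0.07, as low as -0.85 without the aged female library, and 1.08 without the young female, 0.41 without the aged male and 0.0086 with labels exchanged. Edn1, middle-aged minus young, was -0.51, as low as -2.40 without the library labelled middle-aged male, and 0.31 without the young female and 0.78 without the one labelled middle-aged female. The cause was not tested. Over all single alternatives, 586 kept direction and side of the threshold, 35 lost it and 7 gained it. No paired analysis was possible because the labels give no replicate numbers and the numbers used here only name libraries. Library in the type fits and labelled sex in the age fits were terms. Smooth muscle had 4 and lymphatic endothelium 3 libraries of at least 20 cells, which limits both. The values of marker-divided cells without 1 library were added after the data were seen.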
